A study of Homo sapiens with 8 samples.

Results

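The mechanistic target of rapamycin (mTOR) is a kinase that works in a pair of protein complexes, and transcripts of 10 genes that encode the complexes and the regulators just upstream of them were followed here. They are MTOR, MLST8, RPTOR, AKT1S1, DEPTOR, RICTOR, TSC1, TSC2, RHEB and DDIT4. The genes were chosen by name, and each was the row of the deposited table carrying that symbol: 10 of 18787 gene symbols. All 10 reached a value of 10 in at least 2 libraries, as did 14282 symbols in all.

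RNA came from U87 and T98, both established human glioblastoma cell lines, cultured in DMEM with 10% fetal bovine serum. Each line was transfected, with the lipid reagent Lipofectamine RNAiMAX, with a control siRNA or one that targets STK11, the gene of the kinase LKB1, and RNA was taken at 72 hours. This made 4 groups of 2 libraries: T98 control, T98 LKB1, U87 control and U87 LKB1. The siRNA sequences were not used here, and each siRNA arm stands for 1 reagent in 1 line. Nothing states that the 2 libraries of a group came from separate cultures, so the p-values reflect only how far these libraries vary, which may be technical.

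By way of background, mTOR complex 1 (mTORC1) holds mTOR, MLST8 and the scaffold RAPTOR (RPTOR) and promotes protein synthesis and growth, while mTOR complex 2 (mTORC2) holds RICTOR in place of RAPTOR and phosphorylates AKT. PRAS40 (AKT1S1) and DEPTOR restrain the kinase. The small GTPase RHEB switches mTORC1 on, and the TSC1 and TSC2 complex switches RHEB off. LKB1 activates AMPK, which phosphorylates TSC2 and RAPTOR and so lowers mTORC1 activity, and DDIT4 (REDD1), made under hypoxia and other stress, lowers it through the TSC complex. These regulatory steps act on proteins, and the values here are transcript levels.

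Reads recovered by undoing the scaling of the deposited values summed to between 25234334 and 38031734 per library. Values are normalised read counts, scaled by the authors so that libraries can be compared. STK11 checked the labels: it fell in T98 from 2020 (SD 30.03, n = 2) to 464 (SD 175) and in U87 from 2243 (SD 286, n = 2) to 373 (SD 16.97), with adjusted p = 0.00254 and 0.00195. In each group 1 library ran on sequencing lane 2 and the other on lane 4 (T98) or lane 5 (U87). Lane cannot be told apart from anything else that differed between the 2 libraries of a group. Lane 2 minus the other lane had an SD over genes of 0.86 to 0.89 on the log2 scale in the 4 groups. This difference correlated across genes between the arms of a line (r = 0.72 in T98 and 0.81 in U87) but only 0.12 to 0.18 between lines. Knockdown is therefore given lane by lane and from a fit that has a lane term for each line. A gene is called when its limma p, adjusted over all 14282 genes by Benjamini-Hochberg, is under 0.05, and differences are on the log2(value + 1) scale.

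Cell type markers were mixed in both lines. Of the 10 astrocyte and glial markers, 4 in T98 and 5 in U87 had a mean of at least 100. VIM and CD44 lay at 34020.5 or above in every library, SOX9 at 428 to 3086 and SLC1A3 at 260.1 to 1541, and NES was 16.19 to 123 in T98 and 1361 to 2073 in U87. The astrocyte filament GFAP was 1.85 to 8.60 in T98 and 21.62 to 50.7 in U87, and S100B, AQP4 and SOX2 were 3.48 or lower. Of the 6 microglia and leukocyte markers, PTPRC, AIF1 and CX3CR1 were 9.63 or lower. CD68 was 538 to 1125 in T98 and 12020 to 22934 in U87. CSF1R was 7.53 to 25.22 in T98 and 206.5 to 812.5 in U87. ITGAM went the other way, at 56.06 to 154.8 in T98 and 26.21 to 31.65 in U87. Some marker sums also moved with the siRNA. The 5 neuron markers summed to 4946 to 6071 in T98 control and 1846 to 2513 in T98 LKB1, against 1293 to 1504 in U87 control and 2774 to 2927 in U87 LKB1. These sums were mostly MAP2 in T98 (1391.7 to 5980.0) and SNAP25 in U87 (576.5 to 2386.0), while RBFOX3 and STMN2 were 7.64 or lower. The 5 fibroblast and mesenchyme markers summed to 12775 to 19315 in T98 control and 26865 to 29614 in T98 LKB1, and to 32697 to 34156 and 39337 to 45271 in U87. In U87 they were mostly COL1A1 (29577.8 to 40896.7, against 625.8 to 976.6 in T98). In T98 they were mostly PDGFRB (7289.1 to 10503.3, against 2682.7 to 4228.5 in U87) and THY1 (4794.8 to 15880.0, against 6.53 to 121.5). Microglia and leukocyte sums were 820.0 to 1299 in T98 control and 609 to 739.5 in T98 LKB1, and the 5 endothelial markers summed to 378 to 411.5 in U87 control and 509 to 536 in U87 LKB1. The 4 epithelial markers summed to 76.3 to 83.4 in U87 control and 99.2 to 99.3 in U87 LKB1. The arms overlapped for astrocyte and glial sums in both lines, microglia and leukocyte sums in U87, and endothelial and epithelial sums in T98. The part of these markers in the knockdown results below was not tested.

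Promoters are printed for 3 of the genes whose transcripts passed the test below, because RPTOR and RHEB moved in opposite directions and DDIT4 is a stress-induced gene. Each runs 5′ to 3′ on the gene's strand from 250 bases before to 50 after the annotated start (RefSeq, GRCh38.p14, where 7 of the 10 genes had an entry; not MLST8, AKT1S1 and DEPTOR). DDIT4 lies on the plus strand at chr10:72273674-72273973, RPTOR on the plus strand at chr17:80544588-80544887 and RHEB on the minus strand at chr7:151519846-151520145. Capitals mark the hypoxia response core ACGTG and the GC box GGGCGG, searched on both strands.
DDIT4: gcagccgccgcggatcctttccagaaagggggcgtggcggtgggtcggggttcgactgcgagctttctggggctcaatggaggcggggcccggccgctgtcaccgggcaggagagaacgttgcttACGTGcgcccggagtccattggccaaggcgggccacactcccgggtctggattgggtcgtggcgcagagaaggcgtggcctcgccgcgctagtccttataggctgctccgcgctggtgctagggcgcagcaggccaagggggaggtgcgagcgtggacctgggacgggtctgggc
RPTOR: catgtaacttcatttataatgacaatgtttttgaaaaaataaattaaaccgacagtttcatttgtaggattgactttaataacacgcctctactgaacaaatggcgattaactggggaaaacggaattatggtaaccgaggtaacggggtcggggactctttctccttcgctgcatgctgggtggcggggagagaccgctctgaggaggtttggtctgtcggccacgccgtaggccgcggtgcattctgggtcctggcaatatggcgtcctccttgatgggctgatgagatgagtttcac
RHEB: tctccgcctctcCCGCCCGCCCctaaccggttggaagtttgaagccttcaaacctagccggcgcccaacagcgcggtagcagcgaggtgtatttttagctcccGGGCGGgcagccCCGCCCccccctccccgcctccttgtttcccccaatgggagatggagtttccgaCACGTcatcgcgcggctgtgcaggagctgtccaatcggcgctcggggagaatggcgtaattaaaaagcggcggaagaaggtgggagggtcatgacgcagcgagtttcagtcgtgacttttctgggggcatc

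ACGTG stood in the windows of RICTOR, TSC2, RHEB and DDIT4, 4 of the 7 genes, against 21.6% of 27305 promoters. GGGCGG stood in 5 of the 7 (MTOR, RICTOR, TSC1, TSC2 and RHEB), against 44.6%. TSC2 alone held the E-box CACGTG, which contains ACGTG (7.43% of promoters), and the ATF4 composite element TGATGCAA (0.923%). The full cyclic AMP response element TGACGTCA, found in 1.98%, was in none of the 7. RPTOR held none of these letters. The matches describe these windows only.

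The kinase subunit and its partner MLST8 did not pass the test in either line. MTOR (chr1:11166588-11322608, hg19) had 6249 and 5482 normalised reads in T98 control (lane 2, then lane 4) and 3361 and 4774 in T98 LKB1. Both T98 LKB1 libraries lay below both controls. The fitted log2 difference was -0.55 (SE 0.20, limma adjusted p = 0.0953), and it was -0.89 on lane 2 and -0.20 on lane 4. In U87, MTOR had 3207 and 3981 with control siRNA (lane 2, then lane 5) and 4087 and 3465 with LKB1 siRNA. Those groups overlapped, and the lanes gave 0.35 and -0.20. MLST8, the small beta-propeller subunit shared by both complexes (chr16:2255178-2259418), had 1277 and 1399 in T98 control against 1818 and 1666 in T98 LKB1. The groups did not overlap, at a log2 difference of 0.38 (SE 0.13, adjusted p = 0.0926). Its U87 values were 1035 and 859 with control siRNA and 977 and 895 with LKB1 siRNA, with lane differences of -0.08 and 0.06. MTOR overlaps ANGPTL7 on the opposite strand and MLST8 overlaps C16orf79 by 165 bases. The library kit does not keep the strand, so reads in the shared stretches cannot be told apart.

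**Figure D1:**
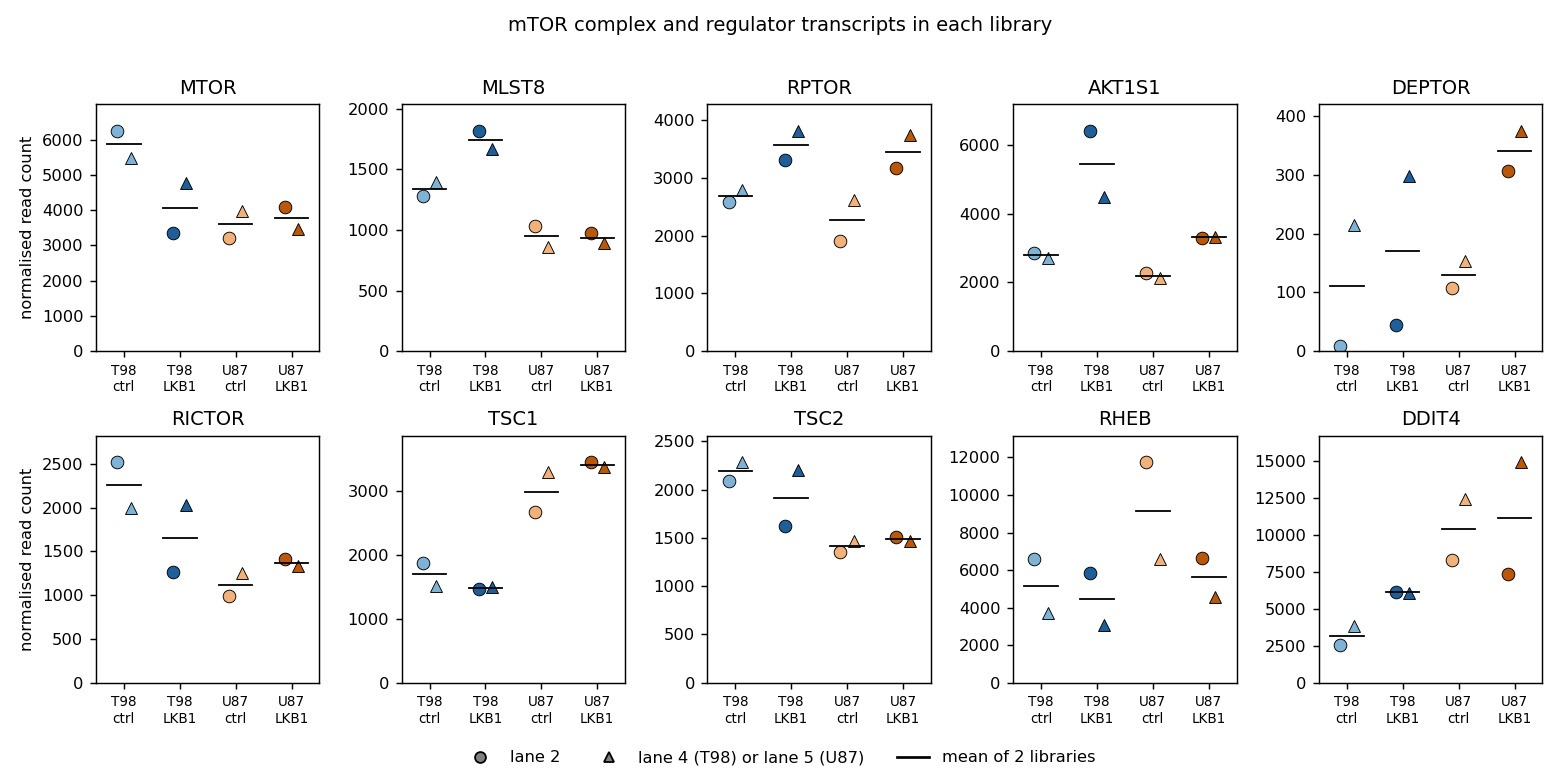
Normalised read count (y axis, from 0) of each of the 10 genes in the 8 libraries, grouped by line and siRNA along x; circles ran on lane 2, triangles on lane 4 or 5, and bars are means of 2. RPTOR and AKT1S1 are higher with LKB1 siRNA in both lines with no overlap, and DEPTOR in T98 splits by lane. RHEB differs more by lane than by siRNA in T98, and about as much by either in U87.

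RPTOR and AKT1S1, the subunits that set mTORC1 apart from mTORC2, were higher with LKB1 siRNA in each of the 4 within-lane comparisons. RPTOR (chr17:78518625-78940173) had 2575 and 2781 in T98 control and 3313 and 3809 in T98 LKB1. In U87 it had 1906 and 2615 with control siRNA and 3162 and 3733 with LKB1 siRNA. Neither line's groups overlapped, and the lane differences were 0.36 and 0.45 in T98 and 0.73 and 0.51 in U87. RPTOR rose in U87 by 0.62 (SE 0.12, adjusted p = 0.0181), or 1.54-fold. The T98 difference of 0.41 (SE 0.12) had adjusted p = 0.0581.

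AKT1S1, which encodes the AKT substrate and mTORC1 inhibitor PRAS40 (chr19:50372297-50380644), passed the test in both lines. It had 2869 and 2719 in T98 control and 6411 and 4492 in T98 LKB1, a rise of 0.94 (SE 0.14, adjusted p = 0.00926), or 1.92-fold. The U87 values were tight: 2278 and 2127 with control siRNA, and 3303 and 3318 with LKB1 siRNA. There AKT1S1 rose by 0.59 (SE 0.14, adjusted p = 0.0363), or 1.50-fold. Averaged over the lines the rise was 0.77 (SE 0.10, adjusted p = 0.00241), and this was the only one of the 10 genes called when the lane term was left out (adjusted p = 0.0493). As the RNA came from whole cultures, a change in the number of cells carrying a transcript and a change in its amount per cell cannot be told apart.

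DEPTOR, the inhibitor that binds mTOR in both complexes, was the scarcest of the 10 per kilobase and, in T98, the one most divided by lane. In T98 control it had 8.78 on lane 2, from 8 reads, and 214 on lane 4, from 225 reads. In T98 LKB1 it had 43.9 (38 reads) and 298 (320 reads). These lane differences, -4.46 and -2.74 on the log2 scale, were larger than those of 99.7% and 98.3% of the genes tested in the same groups. In U87 the values were 107 and 153 with control siRNA and 307 and 375 with LKB1 siRNA, with no overlap. Within lanes DEPTOR was higher with LKB1 siRNA by 2.20 and 0.48 in T98 and by 1.51 and 1.29 in U87. Neither line passed alone (1.34, SE 0.38, adjusted p = 0.0509 in T98 and 1.40, SE 0.38, adjusted p = 0.0537 in U87), while the mean over the lines rose by 1.37 (SE 0.27, adjusted p = 0.0101). With a pseudocount of 10 in place of 1, both lines passed (0.99, adjusted p = 0.0337 and 1.34, adjusted p = 0.0124). Why the lanes of T98 differ was not tested.

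RICTOR, the mTORC2 scaffold (chr5:38938022-39074501), did not pass in either line, and its T98 lanes disagreed. It had 2517 and 1994 in T98 control and 1260 and 2035 in T98 LKB1, so lane 2 gave -1.00 and lane 4 gave 0.03. In U87 it had 991 and 1249 with control siRNA and 1413 and 1329 with LKB1 siRNA, without overlap, and the lanes gave 0.51 and 0.09. The fitted differences were -0.48 (SE 0.24, adjusted p = 0.188) in T98 and 0.30 (SE 0.24, adjusted p = 0.459) in U87. The difference between the lines, -0.78 (SE 0.33), had an unadjusted p = 0.0482 and adjusted p = 0.333.

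TSC1 and TSC2, which encode hamartin and tuberin of the RHEB-inactivating complex, did not pass in either line. TSC1 (chr9:135766735-135820020) had 1877 and 1513 in T98 control and 1460.0 and 1506 in T98 LKB1. In U87 it had 2666 and 3297 with control siRNA and 3450.4 and 3379 with LKB1 siRNA. Its groups did not overlap in either line, lower with LKB1 siRNA in T98 and higher in U87, yet the lane differences were small: -0.36 and -0.01 in T98, 0.37 and 0.04 in U87. The difference between the lines was -0.39 (SE 0.21, adjusted p = 0.423). TSC2 (chr16:2097990-2138713) had 2094 and 2282 in T98 control, 1628 and 2207 in T98 LKB1, 1352 and 1472 in U87 control, and 1506 and 1471 in U87 LKB1. The T98 and U87 arms both overlapped, with adjusted p = 0.317 and 0.757. TSC2 and PKD1 share 3 bases at their ends on opposite strands.

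RHEB, the GTPase that activates mTORC1 (chr7:151163098-151217010), was the one gene of the 10 lower with LKB1 siRNA in all 4 lane comparisons. It had 6587 and 3734 in T98 control, and 5860.2 and 3079 in T98 LKB1. The U87 values were 11738 and 6609 with control siRNA and 6647 and 4581 with LKB1 siRNA. Lane 2 was higher than the other lane in every group, by 0.54 to 0.93, so the groups overlapped in both lines although each lane pair went one way. RHEB fell by 0.67 in U87 (SE 0.12, adjusted p = 0.0152). In T98 the difference was -0.22 (SE 0.12, adjusted p = 0.242), and the mean over the lines fell by 0.45 (SE 0.09, adjusted p = 0.0104). Without the lane term the U87 p-value was 0.162 before adjustment. RHEB has 3 pseudogenes named after it, and the counting of reads shared with them is not given in the sources used here.

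DDIT4, the stress-induced inhibitor upstream of the TSC complex (chr10:74033677-74035797), rose in T98. It had 2533 and 3835 in T98 control and 6183 and 6095 in T98 LKB1, a rise of 0.98 (SE 0.18, adjusted p = 0.0150), or 1.97-fold, seen on both lanes (1.29 and 0.67). In U87 it was already 8333 and 12450 with control siRNA and stood at 7400.0 and 14936 with LKB1 siRNA. There the arms overlapped, the lanes gave -0.17 and 0.26, and the difference was 0.05 (SE 0.18, adjusted p = 0.896). The effect in T98 exceeded that in U87 by 0.93 (SE 0.25), with the smallest p of the 10 genes (unadjusted 0.00646), but this did not pass over all genes (adjusted p = 0.162).

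**Figure D2:**
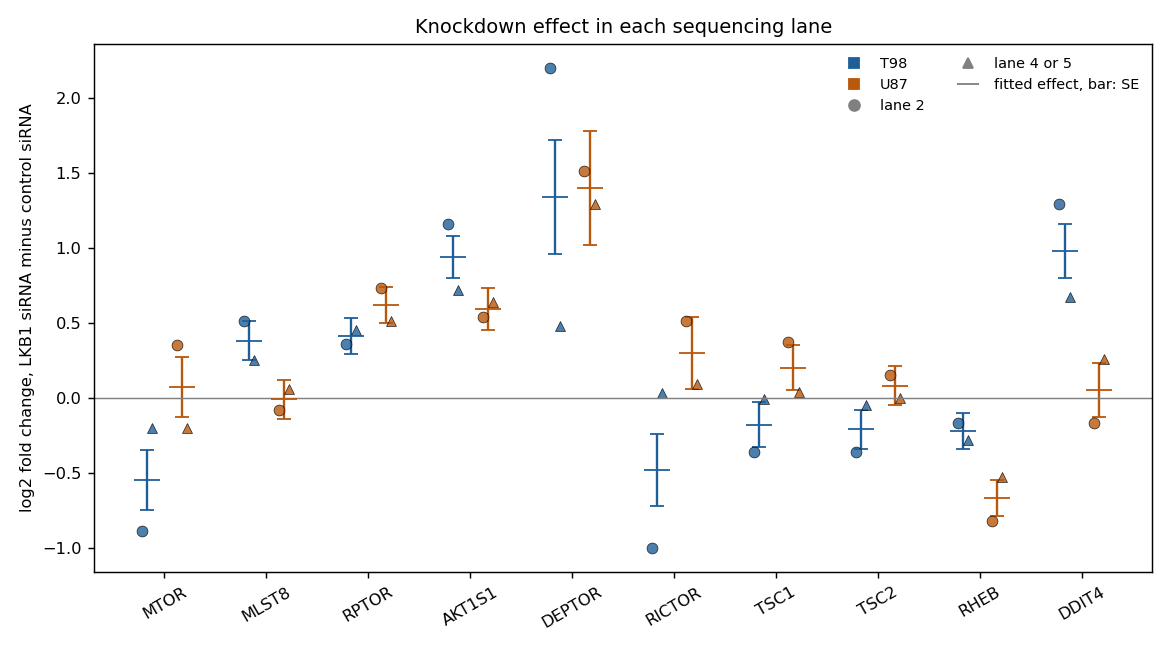
Log2 fold change of LKB1 siRNA over control siRNA (y axis) for each gene along x, T98 in blue and U87 in orange; circles are lane 2, triangles lane 4 or 5, and the horizontal mark with its bar is the fitted effect and its SE. RPTOR, AKT1S1 and DEPTOR lie above 0 and RHEB below 0 in all 4 lane comparisons, whereas the 2 lanes of T98 lie far apart for DEPTOR and RICTOR.

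Counted together, 2 of the 10 genes rose in T98 (AKT1S1 and DDIT4) and none fell, where 8.48% of all genes tested rose and 7.33% fell. U87 had 2 higher (RPTOR and AKT1S1) and 1 lower (RHEB), against 5.29% and 5.91%. For the mean over the lines 4 rose (RPTOR, AKT1S1, DEPTOR and DDIT4) and RHEB fell, with 13.2% of all genes called in each direction. The median log2 change of the 10 genes was 0.10 in T98 and 0.14 in U87, beside 0.02 and 0.00 over all genes. Without the lane term limma called 0 of the 10 in either line, and few of all genes (0.0280% in T98 and 0.0560% in U87). In that fit 3 of the 10 in T98 and 2 in U87 had an unadjusted p under 0.05. Of all 14282 genes tested, 1502 in T98 and 1268 in U87 did. AKT1S1 alone of the 10 was called for the mean effect without the lane term, where the background was 1.86%.

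None of the 10 knockdown effects was called different between the lines by limma, with or without the lane term (all genes: 0.476% and 0%). With it RICTOR, RHEB and DDIT4, 3 of the 10, had an unadjusted p under 0.05, and without it 0. Of all 14282 genes tested, 2110 had such a p with the lane term and 367 without it. The 2 lanes of T98 had the same sign for 9 of the 10 genes and those of U87 for 6, where 72.9% and 73.1% of all genes did. All 4 lane comparisons shared a sign for RPTOR, AKT1S1, DEPTOR and RHEB, 4 of 10 against 43.1% of all genes. Control and LKB1 libraries did not overlap for 6 of the 10 in T98 (41.0% of all genes) and 5 in U87 (37.8%). These shares are close to the background, so the counts are not a result about the 10 genes.

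The calls in each line rest on few libraries. In T98, AKT1S1 and DDIT4 remained called without T98 control 2 or T98 LKB1 2, and lost the call without T98 control 1, T98 LKB1 1 or any 1 U87 library, with adjusted p up to 0.132 and 0.136. In U87, RPTOR, AKT1S1 and RHEB remained called without any 1 T98 library and lost the call without any 1 U87 library, with adjusted p up to 0.529, 0.525 and 0.522. Leaving out 1 library also removes its lane partner from the estimate of the spread. Without 1 library, the fitted effect in its line is the other lane's difference, and the effect in the other line is unchanged. Both lanes already had the same sign for these 5 calls, so their directions could not change in these settings. For the mean effect, RPTOR, AKT1S1, DEPTOR and RHEB remained called without any 1 T98 library and lost the call without any 1 U87 library, and DDIT4 also lost it without T98 control 1 or T98 LKB1 1 (highest adjusted p 0.257). Fits with a library left out were not made for the pathway lists below.

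Between the lines at baseline, 5 of the 10 genes differed in the control siRNA libraries. This comparison has no lane term, since the lines share only lane 2. MTOR was higher in T98 than in U87 by 0.71 on the log2 scale (SE 0.23, adjusted p = 0.0438), RICTOR by 1.01 (SE 0.27, adjusted p = 0.0231) and TSC2 by 0.63 (SE 0.20, adjusted p = 0.0429). TSC1 was lower in T98 (-0.81, SE 0.19, adjusted p = 0.0145). So was DDIT4 (-1.71, SE 0.37, adjusted p = 0.0102), at 0.306 of its U87 level. Of all genes 18.3% were higher and 19.5% lower. Control libraries of the lines did not overlap for 8 of the 10 (71.6% of all genes). The fit with a lane term, which compares the lines at lane 2, called 8 (63.3% of all genes) and added AKT1S1, DEPTOR and RHEB. DEPTOR shows what that choice does: T98 minus U87 was -1.49 (SE 1.39, adjusted p = 0.427) without the lane term and -3.09 (SE 0.46, adjusted p = 0.000775) with it, and 0.74 when T98 control 1 was left out. With 1 library left out, calls at baseline ranged from 1 of the 10 genes, without T98 control 1 or without U87 control 2, to 5. Summed levels of the 6 microglia and leukocyte markers were 820.0 to 1299 in T98 control and 12392 to 20342 in U87 control, mostly CD68. PTPRC, AIF1 and CX3CR1 were near 0 in both lines, and ITGAM was higher in T98. The part of these markers in the baseline differences was not tested.

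Dividing by transcript length allowed genes to be compared with each other. DDIT4 was the highest per kilobase, with a mean of 4399 normalised reads per kb over the 8 libraries, followed by RHEB at 2931 and AKT1S1 at 1407. MLST8 (600), MTOR (493) and RPTOR (433) formed a middle group. TSC2 (309), TSC1 (277) and RICTOR (167) came next, and DEPTOR was lowest at 71.3. DDIT4 and RHEB stood at percentiles 96.8 and 94.6 of all genes tested, RICTOR at percentile 40.7 and DEPTOR at 27.6. Neighbours in this order often exchanged places: RHEB exceeded DDIT4 per kb in T98 control (2477, SD 968 against 1814, SD 524) and not in U87 control (4404, SD 1741 against 5921, SD 1659), each within the spread of the libraries. TSC2 stood above TSC1 in all 4 T98 libraries, by 0.76 to 1.20 on the log2 scale per kb, and below it in all 4 U87 libraries, by -0.37 to -0.59.

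**Figure D3:**
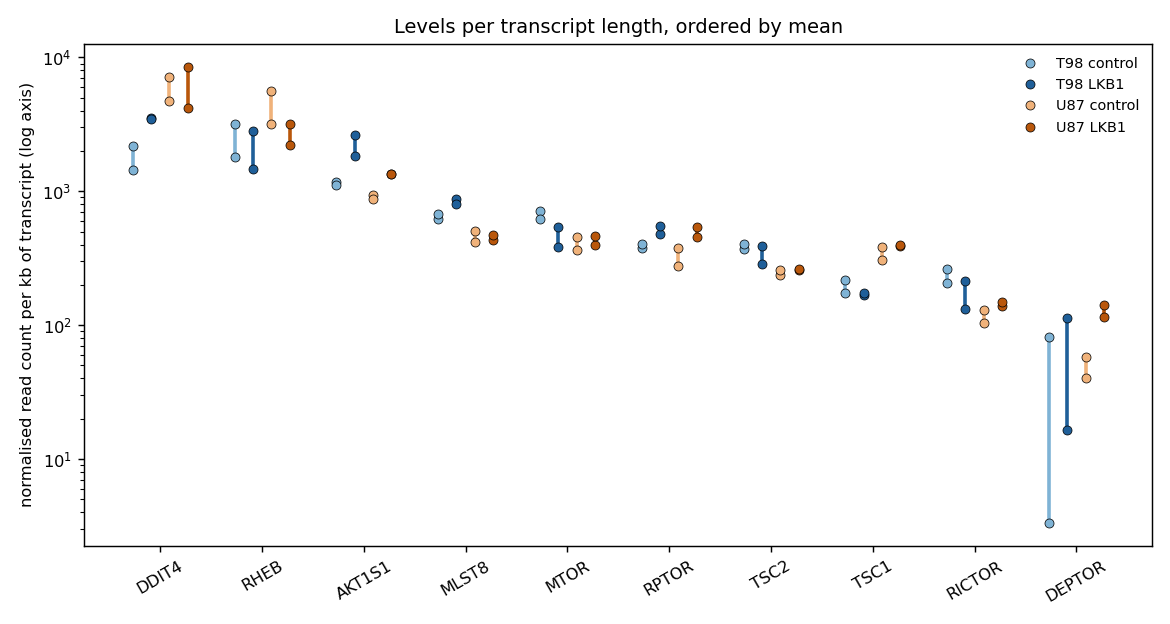
Normalised read count per kb of transcript (log axis) for the 10 genes ordered by their mean; each dot is 1 library and a line joins the 2 libraries of a group. DDIT4 and RHEB lead and DEPTOR trails, with a T98 control pair that spans 3.33 to 81.0.

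Ratios taken within a library put the 2 complex-specific scaffolds side by side. RPTOR over RICTOR per kb was 0.51 and 0.95 in T98 control (log2, lane 2, then lane 4) and 1.87 and 1.38 in T98 LKB1, with no overlap. In U87 it was 1.42 and 1.54 with control siRNA and 1.64 and 1.96 with LKB1 siRNA, again without overlap. RPTOR over MTOR was below 0 in every control library (-0.93, -0.63, -0.40 and -0.26), and lay at 0.33 and 0.02 in T98 LKB1 and at -0.02 and 0.46 in U87 LKB1. AKT1S1 over MTOR went from 0.72 and 0.83 to 2.78 and 1.76 in T98 and from 1.35 and 0.94 to 1.54 and 1.78 in U87. RICTOR over MTOR lay between -1.82 and -1.35 in all 8 libraries. In U87 it was -1.82 and -1.80 with control siRNA and -1.66 and -1.51 with LKB1 siRNA, without overlap. The T98 arms overlapped, at -1.44 and -1.58 with control siRNA and -1.54 and -1.35 with LKB1 siRNA. These ratios describe the libraries and were not tested, and the MTOR and RICTOR differences that enter them did not pass in either line.

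The other genes of the pathway were followed as 4 lists. Amino acid sensing holds the Rag GTPases and the proteins that place mTORC1 on the lysosome or report amino acid supply, and 30 of its 31 genes were tested. In T98 3 rose and 3 fell (8.48% and 7.33% of all genes), in U87 4 rose and none fell (5.29% and 5.91%), and for the mean effect 7 rose and 3 fell (13.2% each). The T98 counts are near the background. LAMTOR3, a subunit of the Ragulator scaffold on the lysosome, rose in T98 by 0.89 (SE 0.16, adjusted p = 0.0150) and in U87 by 1.02 (SE 0.16, adjusted p = 0.00867). Its values were 474 and 656 in T98 control, 1042 and 1024 in T98 LKB1, 842 and 642 in U87 control, and 1622 and 1371 in U87 LKB1, with no overlap in either line. LAMTOR1, which anchors Ragulator to the membrane, rose by 0.75 in T98 (adjusted p = 0.0200) and 0.63 in U87 (adjusted p = 0.0372). SESN1, a sestrin that signals low leucine and stress, rose in U87 by 1.00 (SE 0.16, adjusted p = 0.00863) and missed the threshold in T98 (0.55, adjusted p = 0.0532).

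The amino acid sensing genes that fell in T98 were FNIP2 and FNIP1, partners of folliculin, and the GTPase RRAGC. FNIP2 had 1694 and 1074 in T98 control and 537 and 608 in T98 LKB1, a change of -1.24 (SE 0.21, adjusted p = 0.0132). RRAGC changed by -0.64 (adjusted p = 0.0245) and FNIP1 by -0.58 (adjusted p = 0.0470). In U87 none of the 3 passed, though both FNIP2 lanes were negative (-0.50 and -0.87). ITFG2 of the KICSTOR complex rose in T98 by 0.60 (limma adjusted p = 0.0402). In U87 its difference was 0.51 (adjusted p = 0.0777), and its mean over the lines rose by 0.55 (adjusted p = 0.0105). CASTOR2 (GATSL2), of the arginine sensor family, rose in U87 by 1.02 (SE 0.23, adjusted p = 0.0304) from low levels. For the mean effect the S-adenosylmethionine sensor SAMTOR (C7orf60) fell by 0.54 (adjusted p = 0.0205). The list's median was 0.04 in T98 and 0.13 in U87, beside 0.02 and 0.00 for all genes.

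In the 21 genes of the insulin receptor, PI3K and AKT input, 4 rose and 3 fell in T98 (8.48% and 7.33% of all genes), and 1 rose and 1 fell in U87 (5.29% and 5.91%), the latter about the background. PDPK1, the kinase that phosphorylates AKT, S6 kinase and SGK, was called in both lines: 0.64 in T98 (SE 0.14, adjusted p = 0.0272) and 0.93 in U87 (SE 0.14, adjusted p = 0.00831). It had 1700.2 and 1740.2 in T98 control, 2397 and 3011 in T98 LKB1, 1440.1 and 1730 in U87 control, and 3098 and 2901 in U87 LKB1. SGK3, an AKT-related kinase, fell by 1.55 in T98 (SE 0.21, adjusted p = 0.00696) and by 1.54 in U87 (SE 0.21, adjusted p = 0.00482). Its values dropped from 263 and 241 to 73.1 and 99.7 in T98 and from 617 and 484 to 203 and 173 in U87. The receptors INSR (-1.19, SE 0.22, adjusted p = 0.0158) and IGF1R (-0.75, SE 0.19, adjusted p = 0.0413) fell in T98, while their U87 lane differences lay between -0.01 and 0.24. The adaptor IRS2 (0.72, limma adjusted p = 0.0295) and the mTORC2 substrate kinase SGK1 (1.17, SE 0.29, adjusted p = 0.0367) rose in T98. SGK1's lanes in T98 were uneven, at 1.88 and 0.45, and its U87 difference was -0.09. IRS2 missed the threshold in U87 (0.62, adjusted p = 0.0521) and was called for the mean effect (0.67, adjusted p = 0.00674). PDPK1 and SGK3, with LAMTOR3, also passed for the mean effect without the lane term (adjusted p = 0.0412, 0.0247 and 0.0457).

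**Figure D4:**
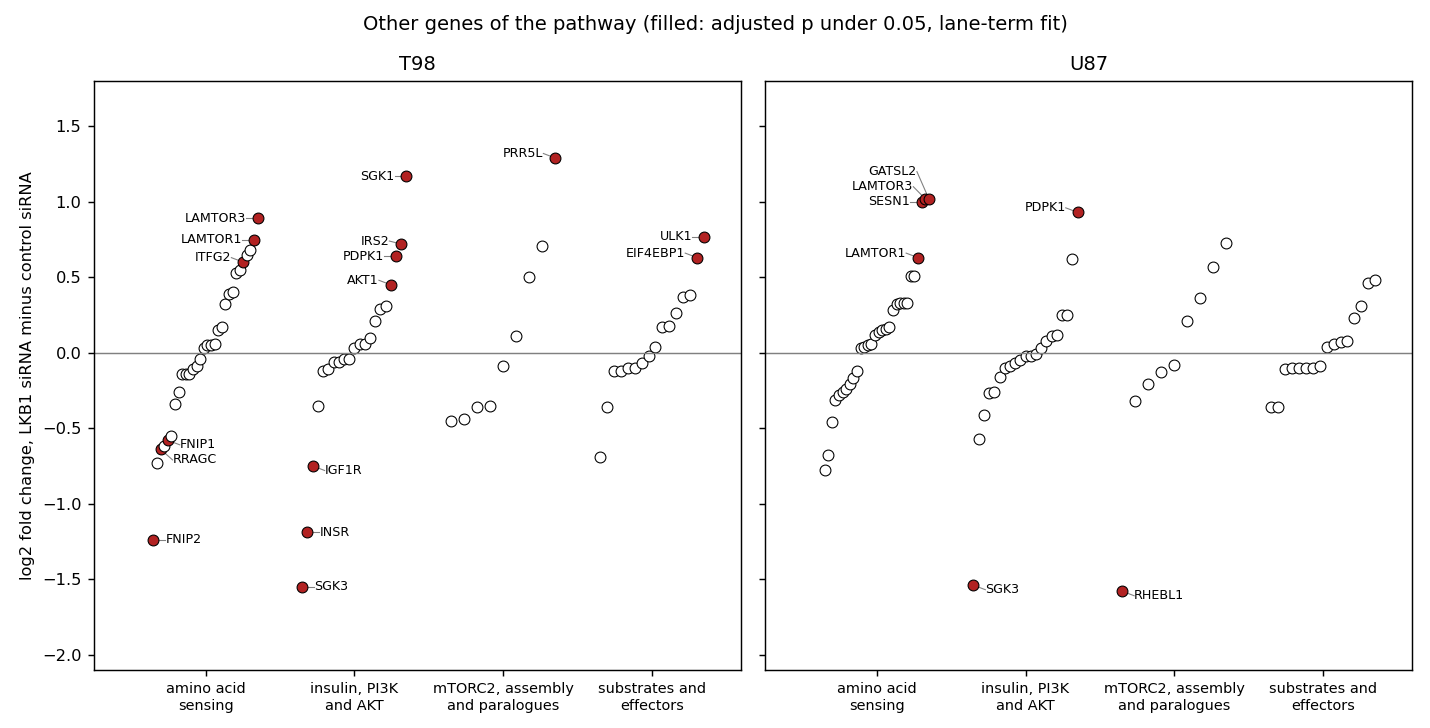
Log2 fold change of LKB1 siRNA over control siRNA (y axis) for the 76 tested genes of 4 pathway lists, T98 left and U87 right; each point is 1 gene, ordered within its list, and filled points passed the test and are named. SGK3 is low and PDPK1, LAMTOR3 and LAMTOR1 are high in both lines, and no substrate gene is filled in U87.

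Other mTORC2 subunits, assembly factors and paralogues of the 10 genes gave 1 call in each line among 9 genes, which is no more than the background: 8.48% of all genes rose and 7.33% fell in T98, and 5.29% and 5.91% in U87. PRR5L, an mTORC2-associated protein, rose in T98 by 1.29 (SE 0.29, adjusted p = 0.0266), from 195 and 356 to 768 and 547. In U87 RHEBL1, a paralogue of RHEB, fell by 1.58 (SE 0.24, adjusted p = 0.00726), from 100.4 and 211 to 36.3 and 63.8. For the mean effect, TBC1D7, the third subunit of the TSC complex, rose by 0.72 (SE 0.15, adjusted p = 0.0125), as did PRR5L, whereas RHEBL1 and the assembly factor TTI2 (-0.34, adjusted p = 0.0455) fell.

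The 16 substrates and effectors of mTORC1 had 2 calls in T98, both higher, where 8.48% of all genes rose and 7.33% fell, so the count is near the background. ULK1, the autophagy-starting kinase that mTORC1 holds inactive, rose by 0.77 (SE 0.15, adjusted p = 0.0192), and EIF4EBP1, the translation repressor 4E-BP1, rose by 0.63 (SE 0.17, adjusted p = 0.0490). In U87 limma called 0 of 16 with or without the lane term, where 2 and 0 had an unadjusted p under 0.05. Of all 14282 genes tested, 3939 and 1268 did. ULK1 was also called for the mean effect (0.62, SE 0.11, adjusted p = 0.00635). No gene of the 4 lists differed between the lines in its knockdown effect by limma, with or without the lane term. With it, 1 of 9, 3 of 30, 4 of 21 and 2 of 16 had an unadjusted p under 0.05. So did 2110 of all 14282 genes tested, so these counts are near the background. Without the lane term 0 list genes were called in either line.

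The widest baseline differences in these lists exceeded every knockdown effect in them. RRAGD, a Rag GTPase induced by TFEB-family factors, was at 14.94 and 16.1 in T98 control and 455 and 967 in U87 control, a log2 difference of -5.33 (SE 0.69, adjusted p = 0.00109). DDIT4L, a paralogue of DDIT4, was at 1.20 (1 read) and 22.9 in T98 control and 519 and 453 in U87 control, a difference of -6.07 (SE 1.14, adjusted p = 0.00572). DDIT4 and DDIT4L were thus both lower in T98. SESN1 (-2.13, adjusted p = 0.00121), SESN2 (-2.20, adjusted p = 0.00331), PIK3CD (-2.65, adjusted p = 0.000349), the receptor adaptor GRB10 (-2.34, adjusted p = 0.000141) and the mTORC2 subunit MAPKAP1 (-1.77, adjusted p = 0.000548) were lower in T98 as well. Higher in T98 were the mTORC2-binding PRR5 (3.51, SE 0.90, adjusted p = 0.0188), the GATOR1 subunit NPRL3 (2.66, SE 0.39, adjusted p = 0.00197), the mTORC1 effector LARP1 (1.27, adjusted p = 0.00472) and the S6 kinase gene RPS6KB1 (1.18, adjusted p = 0.00829). PRR5 had only 3 and 6 reads in U87 control. Calls by list were 3 higher and 5 lower of 30 for amino acid sensing, 0 higher and 4 lower of 21 for insulin and PI3K input, 2 and 3 of 9 for mTORC2 and paralogues, and 2 and 3 of 16 for substrates. Of all genes 18.3% were higher and 19.5% lower, so these counts are not a result about the lists.

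For each of the 10 genes, the gene with the most similar profile of log2 values over the 8 libraries was found among 12196 genes with a mean of at least 50. The highest Pearson coefficients ran from 0.975 to 0.995. RPTOR was most like MADD (0.989), AKT1S1 most like C16orf13 (0.990), TSC1 most like SH2B3 (0.995), RHEB most like COMMD7 (0.979) and DDIT4 most like CLDND1 (0.987). None of the 10 was the best match of another. The 8 points share 4 groups and 3 lanes, and the coefficients are given as a description.

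Short 3′ UTR words that were picked from earlier results on these same libraries were looked up in 1 3′ UTR of each of the 10 genes. It was the longest among GENCODE v29 transcripts linked to the RefSeq transcript of the gene's row. These UTRs ran from 108 bases in TSC2 to 4887 in TSC1, and other isoforms were not searched. GCAGTAC, held by 11.4% of the genes that rose and 2.35% of those that fell for the mean effect, and by 4.21% of 13617 genes, was in none of the 10. GAAGGAA, held by 17.8% of genes (16.2% of those that rose, 28.4% of those that fell), was in RPTOR, TSC1 (3 times) and DDIT4. TGTATGA (10.9% of genes, 8.51% of those that rose, 19.1% of those that fell) was in RPTOR. GTATGAA (9.25%, 6.1% and 16.1%) was in none. As the words were picked from these libraries, their shares among genes that rose and fell are no independent evidence. Neither RHEB, which fell, nor AKT1S1 and DEPTOR, which rose, held any of the 4 words in the UTR searched. RPTOR and DDIT4 also rose, and the words they held were commoner among genes that fell. The part of the words in these changes was not tested.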

How the data were processed

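The authors deposited 1 table of normalised counts, a signal that is never negative, for 18815 transcript rows and 8 libraries. Per the submitters' processing notes, the aligner was TopHat2 (2.0.8b), the build hg19 and edgeR was used. Which counter and annotation they used is not given in the sources used here. Values deposited by the authors have the form of edgeR pseudo-counts with a common dispersion of 0.06803. Undoing that scaling gave whole reads (within 0.05) for at least 99.98% of values in each library, and these recovered reads were used only to describe depth. Of rows sharing a symbol, the one with the highest mean was kept. Coordinates without another build named are hg19, from the deposited table.

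Differences were tested with limma (3.58.1, R 4.3.3, trend option) on log2(value + 1) for genes with a value of at least 10 in at least 2 libraries, two-sided, with Benjamini-Hochberg adjustment over 14282 genes. Fold changes of low genes are understated on this scale. All 8 libraries entered 1 fit with 4 group means. The knockdown comparisons had a lane term for each line (2 residual degrees of freedom), and the comparison of the control libraries had none (4). Lanes were read from the table's column names, and pairing by lane was checked by the correlation of lane differences (0.72 and 0.81 within lines). The lane-term fit was also run on simulated reads, with changes alike in both lines and the same added noise for every gene. Those settings are simpler than these data, so that run does not vouch for the calls here. Older symbols were matched through a name table (HBXIP for LAMTOR5, for example), and SEC13 was not matched. Named genes are the 10, STK11, and per list and comparison up to 3 called genes in each direction with the smallest adjusted p. The genes, lists, motifs and tests were chosen with earlier results of these data known. Alternatives were another lane setting, a pseudocount of 10, no filter, a minimum of 50, median centring and each library left out.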

Additional observations from a re-analysis of the deposited data

How the results depend on the processing

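Left-out libraries are given as ranges, and the cause of each change was not tested except where stated. Under the other lane setting the number of genes called was 4 in T98, 8 in U87, 265 for the mean effect, 0 for the difference between lines (367 at an unadjusted p under 0.05) and 9037 between the control libraries, and of the 10 genes 0, 0, 1, 0 and 8 were called. With no filter on low values (18787 genes), limma called 0 genes and 0 of the 10 in T98, in U87, for the mean effect and for the difference, while 4407, 3925, 5526 and 2172 genes had an unadjusted p under 0.05. The difference between lines had 109 genes with a pseudocount of 10 and 22 with median centring, against 68. Median centring turned the U87 calls from 755 higher of 1599 to 910 higher of 1628, and MLST8 in U87 from -0.01 to 0.04. With 1 library left out, genes called ranged from 0 to 3466 in T98, 0 to 2432 in U87, 0 to 4750 for the mean effect, 0 to 244 for the difference and 3156 to 5369 between controls. Of the 10 genes, 0 to 5, 0 to 4, 0 to 6 and 1 to 5 were called (difference: 0 in each). A library left out of the lane-term fits leaves 1 lane in its line and so fewer residual degrees of freedom, and the lone sample is assumed to vary like the other groups. Directions turned for genes that were not called: RICTOR in T98 (-1.00 to 0.03) and on average (-0.35 to 0.17), MTOR (-0.20 to 0.35), MLST8 (-0.08 to 0.06) and DDIT4 (-0.17 to 0.26) in U87, TSC1 (-0.08 to 0.10) and TSC2 (-0.14 to 0.01) on average, and DEPTOR for the difference (-0.92 to 0.80) and between controls (-3.72 to 0.74). Pairing by lane is the lane term above; the labels carry no replicate numbers. The planned edgeR and DESeq2 tests on recovered reads were not run. Depth limits DEPTOR most, with 8 reads in T98 control 1.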
